A study of Mus musculus with 18 samples.

Results

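The Slc30 genes encode the ZnT proteins, a family of transporters. Most of them move zinc out of the cytosol, either across the plasma membrane or into organelles. The members were the 10 rows of the count table named Slc30a1 to Slc30a10, of 54232 genes in all, and they were chosen by name and not by their values. Of the 10, 8 passed the filter on low counts and were tested among 21058 genes. Slc30a8 and Slc30a10 did not pass.

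Most Slc30 proteins carry zinc out of the cytosol and the Slc39 proteins (ZIP) carry it in. Metallothioneins bind zinc in the cytosol and the nucleus. MTF1, a zinc-sensing transcription factor, raises the genes of metallothioneins and of the plasma membrane exporter ZnT1 when zinc is high. In male germ cells zinc is known for its place in sperm chromatin, where it is bound by protamines, and in the packing of the sperm tail.

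RNA was measured in round spermatids (RS), the post-meiotic haploid cells of the testis that are still round, isolated from testes of mice aged 75 to 85 days. There were 6 libraries each of WT mice, of KO mice that lack GRTH, and of KI mice, which carry a human GRTH gene with a missense mutation and lack the phosphorylated form of the protein. GRTH (Ddx25) is a testis RNA helicase, and both mutants arrest before spermatids elongate. The labels do not say whether libraries came from separate mice, so p-values measure the spread between libraries, which may be technical in part.

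Libraries held between 18766971 and 26776555 counts. The targeted gene Ddx25 lay between 538 and 607 CPM (counts scaled so that libraries of unequal depth compare) in WT and between 47.7 and 90.9 CPM in KO. In KI it lay between 0.0456 and 0.519 CPM, apart from the library labelled KI 4 at 56.9 CPM, which is within the range of KO and goes against its label. These counts are of the mouse gene, whereas KI mice carry a human GRTH gene and the study reports their non-phosphorylated protein as unaffected. The low values in KI are therefore no measure of its GRTH expression. The library labelled KI 4 and KO 2 were the closest pair of all. In 6 further pairs, each within 1 genotype, the counts lay nearer to each other than in any remaining pair, and with these 6 pairs summed the samples came to 3 of WT, 5 of KO and 4 of KI. Calls against WT of the members and zinc genes described singly are therefore also given with the pairs summed.

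Several markers of stages and cells differed between the genotypes. The summed level of 9 genes used as markers of elongating spermatids, protamines and transition proteins among them, was lower in both mutants. It lay between 14840 and 20641 CPM in WT, between 1717 and 4387 CPM in KO and between 2302 and 3540 CPM in KI. In both mutants 9 of 9 were called lower. The study describes Prm2 and Tnp2 as already transcribed in RS, so these transcripts are not confined to elongating spermatids. The sum of 6 Leydig cell markers was 9.76 to 19.7 CPM in WT, 29.9 to 52.0 CPM in KO and 13.4 to 66.1 CPM in KI, with 6 of 6 called higher in both. The 6 RS markers were all detected, and their sums overlapped between the genotypes (496 to 878 CPM in WT, 378 to 856 CPM in KO, 383 to 544 CPM in KI). Of the 6, 1 was called lower in KO and 3 in KI, with median log2 fold changes of -0.17 and -0.48. Not every list moved in 1 direction. Of 7 spermatocyte markers, 2 were called higher and 2 lower in KO, and 1 higher and 1 lower in KI. Their sum was 749 to 991 CPM in WT, 928 to 1174.5 CPM in KO and 930 to 1065 CPM in KI. Of 5 endothelial and 5 macrophage markers, 2 each were called higher in both mutants and 0 lower. Of 5 Sertoli cell markers, 2 were called lower in KO and 1 in KI. Of 7 spermatogonial markers, 2 were called higher in KO and 1 in KI. Of 3 peritubular myoid markers tested, 2 were called higher and 1 lower in KO, and 1 and 1 in KI. Over all genes tested, 13.5% were called lower and 16.4% higher in KO, and 15.4% and 16.1% in KI. None of these markers was at the floor of 3 counts in every library. Fewer cells of a type and less RNA per cell cannot be told apart in such bulk samples, and the part of these markers in the results on zinc genes was not tested.

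Sequence at the start of Slc30a4, the member with the largest difference between genotypes among the 8 tested, is shown beside that of Slc30a1, the family's known target of MTF1. Slc30a4 (ENSMUSG00000005802) lies on the minus strand at chr2:122681233-122702663 of GRCm38 and Slc30a1 (ENSMUSG00000037434) on the plus strand at chr1:191906767-191913247. The 250 bases before each RefSeq start (GRCm38.p6) are given, chr2:122702664-122702913 and chr1:191906531-191906780. Capitals mark the core of the metal response element that MTF1 binds, TGCACNC or TGCGCNC on either strand, so that a match on the other strand reads as the reverse complement.

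Slc30a4: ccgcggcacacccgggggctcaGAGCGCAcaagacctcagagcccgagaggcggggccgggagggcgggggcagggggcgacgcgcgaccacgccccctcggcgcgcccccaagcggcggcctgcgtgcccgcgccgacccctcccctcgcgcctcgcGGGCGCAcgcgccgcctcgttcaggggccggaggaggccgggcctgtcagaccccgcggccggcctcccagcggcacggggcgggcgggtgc
Slc30a1: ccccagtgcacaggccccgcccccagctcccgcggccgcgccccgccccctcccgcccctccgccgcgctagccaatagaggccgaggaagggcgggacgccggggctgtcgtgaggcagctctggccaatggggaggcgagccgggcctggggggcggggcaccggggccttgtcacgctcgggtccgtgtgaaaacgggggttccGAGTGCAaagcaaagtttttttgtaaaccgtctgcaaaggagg

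Over the whole window of 250 bases before to 50 after the start, these letters stood 3 times in Slc30a4, 2 times in Slc30a1 and Slc30a2, 3 times in Slc30a10, once in Slc30a5 and in 1 of 2 starts of Slc30a3, and not in Slc30a6, Slc30a7 or Slc30a9. Mt1 held 3 and Mt2 held 4. Of 32851 promoters of the same length, 25.7% held at least 1 match. The window of Slc30a4 was 81.7% G and C, against a median of 52.7% over all promoters. The full cAMP response element TGACGTCA, the site of the spermatid factor CREM, was in none of the windows of the 9 members searched (all but Slc30a8) and in 1.79% of all promoters. The shorter core TGACG, which is also part of the full element, was in Slc30a5 and Slc30a9 and in 20.8% of all promoters.

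In WT the members ranked in levels from the most abundant to the absent. On the scale of CPM per kilobase of gene length (CPM per kb), which allows levels of different genes to be compared, Slc30a1 was at 18.6 ± 5.41 (SD, n = 6), Slc30a3 at 17.4 ± 1.45 and Slc30a4 at 17.1 ± 2.03. The libraries of these 3 overlapped, so their order was not resolved. ZnT1 is the plasma membrane exporter, ZnT3 is known from synaptic vesicles, and ZnT4 loads zinc into vesicles and is the gene of the lethal milk mouse.

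Slc30a9 followed at 6.01 ± 0.713 CPM per kb in WT. Slc30a5 at 3.24 ± 0.262 and Slc30a6 at 3.05 ± 0.692 overlapped with each other. ZnT5 and ZnT6 work as a heterodimer in the early secretory pathway. Slc30a7, the gene of the Golgi transporter ZnT7, was at 0.360 ± 0.0662 and overlapped with Slc30a2, a vesicular transporter best known from the mammary gland, at 0.290 ± 0.0575. Slc30a8, the transporter of insulin granules, and Slc30a10, which is known for carrying manganese, had between 0 and 2 counts in every library of every genotype and were not detectable at this depth. A count of 3, the limit that 0 counts allow, corresponded to 0.112 to 0.160 CPM depending on the library. Without scaling by length Slc30a4 was in place 2 of the WT order, Slc30a9 in place 3 and Slc30a3 in place 4.

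**Figure D1:**
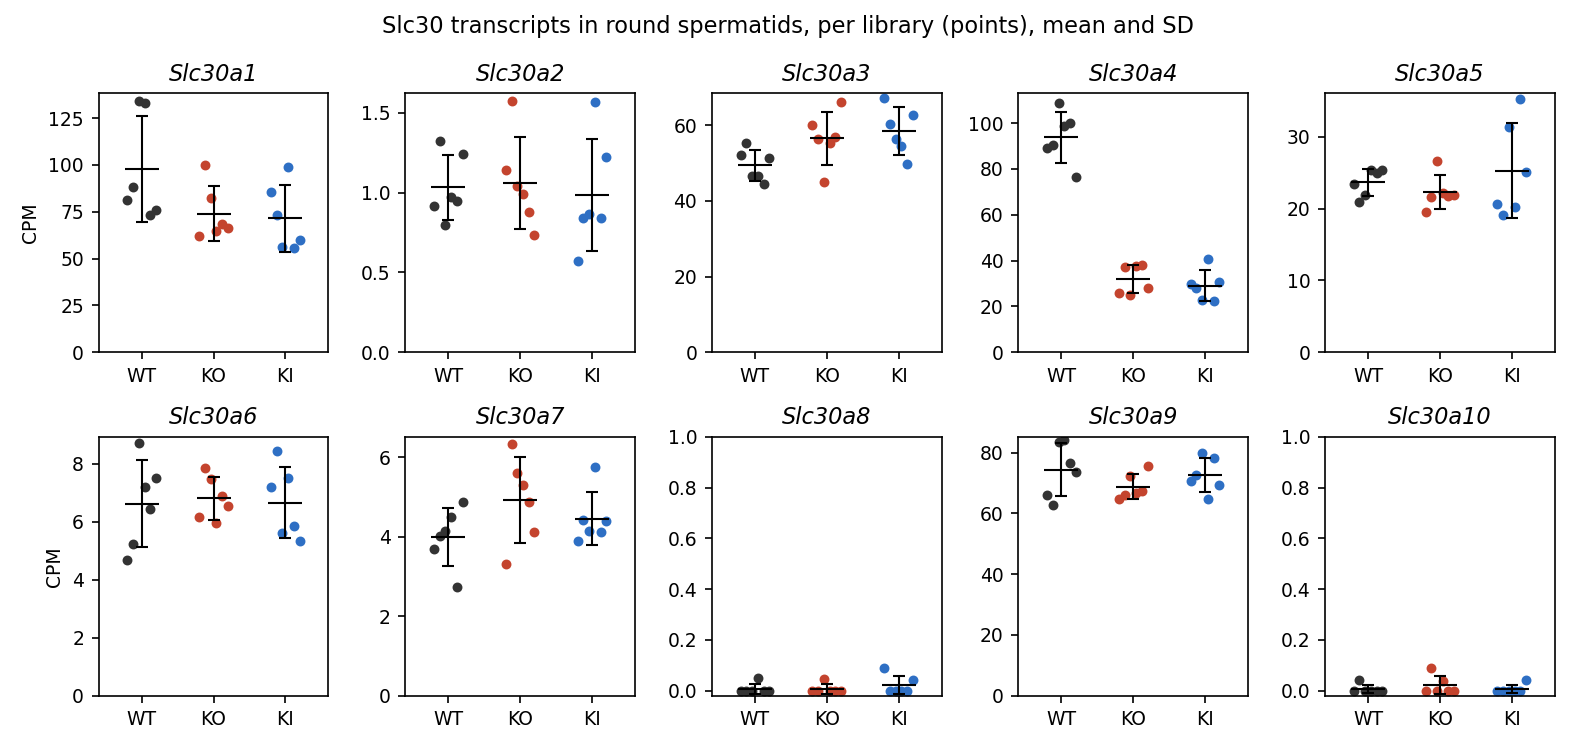
CPM of each Slc30 member (vertical axes, separate scales) in the 6 libraries of WT, KO and KI. Points are libraries in the order of their numbers and bars give the mean and SD. Slc30a4 is the one member whose KO and KI points all lie below its WT points, and Slc30a8 and Slc30a10 lie near 0 throughout.

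Slc30a4 was lower in both mutants. In WT its levels were 89.2, 90.2, 108.6, 98.8, 99.9 and 76.4 CPM in libraries 1 to 6. In KO they were 25.8, 37.2, 25.1, 37.6, 38.0 and 28.0 CPM. In KI they were 29.9, 28.2, 22.6, 40.8, 22.4 and 30.4 CPM, of which 40.8 CPM is the library labelled KI 4. The lowest WT library was thus above the highest KO and KI libraries, and the ranges of KO and KI overlapped. Of all genes tested, 6.44% were lower in KO and 7.91% lower in KI without overlap with WT.

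Mean levels of Slc30a4 (± SD, n = 6 each) were 93.9 ± 11.1 CPM in WT, 32.0 ± 6.29 CPM in KO and 29.1 ± 6.72 CPM in KI. The log2 fold change was -1.55 in KO (SE 0.153, 95% interval -1.87 to -1.24), or 2.94-fold lower, with an adjusted p of 1.35e-07 by edgeR's quasi-likelihood test for a change of any amount. In KI it was -1.69 (SE 0.154, 95% interval -2.01 to -1.37), or 3.23-fold lower, with an adjusted p of 3.46e-08. The fall was past 1 log2 unit by edgeR's glmTreat in KO (adjusted p = 0.0458) and in KI (adjusted p = 0.00636).

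The call past 1 log2 unit did not hold with close libraries summed, where the log2 fold change was -1.61 in KO (adjusted p = 0.170) and -1.60 in KI (adjusted p = 0.245), whereas the call for any amount did (adjusted p = 2.38e-05 and 5.18e-05). With the library labelled KI 4 left out as well, the call past 1 log2 unit was made in KI (log2 fold change -1.74, adjusted p = 0.0922) and not in KO (adjusted p = 0.120). In KO it was also lost when WT 5 (adjusted p = 0.107), KO 1 (0.113), KO 3 (0.115) or KO 6 (0.126) was left out. Without the library labelled KI 4 the log2 fold change in KI was -1.81. The study itself named Slc30a4 among mRNAs altered in these same libraries, so its call is no independent evidence of a fall.

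KI was compared with KO to ask whether loss of the phosphorylated protein alone differs from loss of GRTH. For Slc30a4 the log2 difference between KI and KO was -0.14 with a 95% interval of -0.45 to 0.18 (adjusted p = 0.961). Without the library labelled KI 4 it was -0.26 (adjusted p = 0.598), the lowest of the values with 1 library left out, which reached up to -0.073. Of the 8 members tested, 0 were called between KI and KO by edgeR (0 at an unadjusted p under 0.05, and 0 by DESeq2), where 0.0997% of all genes were called. The differences of the 8 lay between -0.15 and 0.18.

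Over the family, 1 of 8 members was called for a change of any amount in KO and 2 of 8 in KI, against 29.9% and 31.6% of all genes tested. Past 1 log2 unit the count was 1 of 8 in each, Slc30a4, against 1.73% of all genes in KO and 1.95% in KI. The median log2 fold change of the 8 was -0.028 in KO and -0.013 in KI, beside 0.026 and 0.054 over all genes tested. KO and KI share the WT libraries, so the 2 comparisons are not independent of each other.

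**Figure D2:**
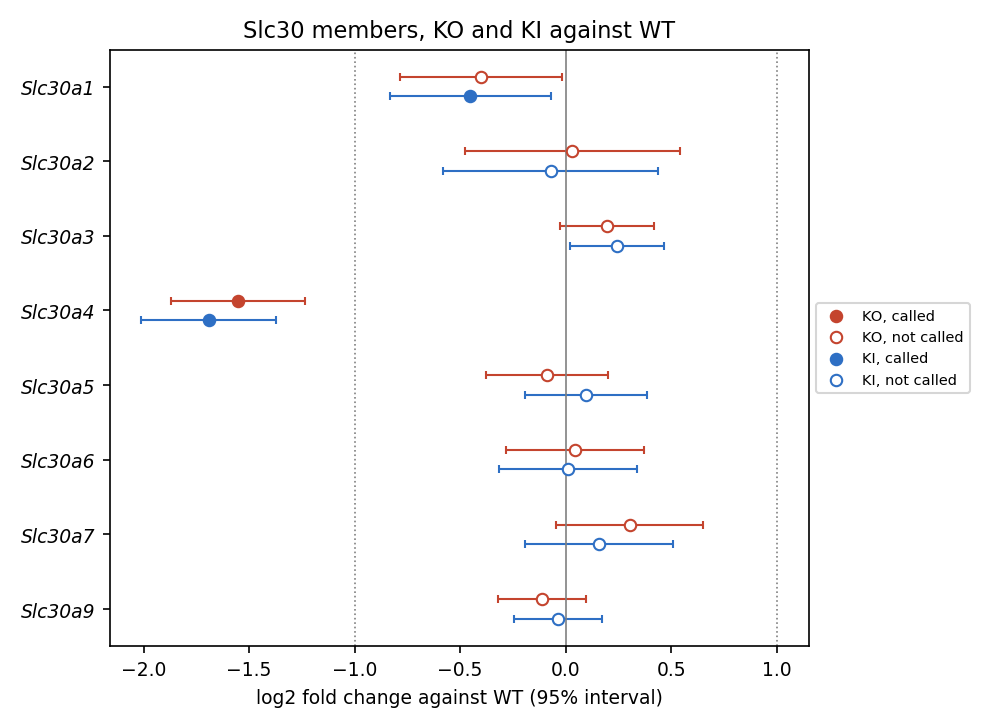
Log2 fold change of the 8 tested members in KO and in KI against WT (horizontal axis, bars are 95% intervals). Filled points passed an adjusted p of 0.1 for a change of any amount, and dotted lines mark 1 log2 unit. The intervals of Slc30a4 lie wholly below -1, and among the other members only that of Slc30a1 in KI was called.

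Slc30a1, the plasma membrane exporter, was called lower in KI but not in KO. Its WT libraries lay at 81.3, 88.0, 134.1, 133.2, 73.1 and 76.0 CPM. Its KO libraries lay at 61.8, 100.1, 82.4, 64.5, 68.4 and 66.4 CPM, and its KI libraries at 85.3, 73.2, 56.3, 98.6, 55.4 and 59.6 CPM. The genotypes overlapped, and the 2 highest WT libraries, WT 3 and WT 4, were one of the close pairs. The log2 fold change was -0.40 in KO (SE 0.184, adjusted p = 0.126) and -0.45 in KI (SE 0.184, adjusted p = 0.0789). The call in KI was lost without WT 3 (log2 fold change -0.28, adjusted p = 0.267), WT 4 (adjusted p = 0.206), KI 2 (0.102), KI 3 (0.155), KI 5 (0.157) or KI 6 (0.153), and with close libraries summed (adjusted p = 0.354). In KO it passed when KO 2 (log2 fold change -0.51, adjusted p = 0.0622), WT 5 (0.0853) or WT 6 (0.0827) was left out.

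Slc30a3 had 44.6 to 55.2 CPM in WT (median 49.0), 44.9 to 66.3 CPM in KO (median 56.6) and 49.8 to 67.3 CPM in KI (median 58.4). Its log2 fold change was 0.20 in KO (adjusted p = 0.205) and 0.24 in KI (95% interval 0.021 to 0.47, adjusted p = 0.104), just outside the threshold. In KI it passed under DESeq2 (adjusted p = 0.0773) and without WT 2 (0.0889), WT 3 (0.0632), WT 6 (0.0634), KO 3 (0.0734), KO 6 (0.0992) or KI 5 (0.0662), and in KO without KO 3 (0.0822). With Slc30a4 low, Slc30a3 was first in the order of CPM per kb in KO (15.8 to 23.4) and in KI (17.6 to 23.7), overlapping with Slc30a1 (11.8 to 19.1 and 10.6 to 18.8), while Slc30a4 (5.83 ± 1.15 and 5.30 ± 1.23) overlapped with Slc30a9 (5.56 ± 0.341 and 5.86 ± 0.456).

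The transporters of the early secretory pathway did not pass the test in either mutant with all libraries in the fit. Slc30a5 had a log2 fold change of -0.09 in KO and 0.09 in KI. Its KI libraries spread more than those of WT, with KI 3 at 31.4 and KI 5 at 35.2 CPM, a close pair, above the 20.9 to 25.4 CPM of WT, and the other KI libraries between 19.1 and 25.1 CPM. Slc30a6 had log2 fold changes of 0.04 and 0.01, within 95% intervals of -0.28 to 0.37 in KO and -0.32 to 0.34 in KI. Slc30a7 had 0.30 in KO (95% interval -0.05 to 0.65, adjusted p = 0.214) and 0.16 in KI (adjusted p = 0.555), from 2.75 to 4.88 CPM in WT, 3.33 to 6.33 CPM in KO and 3.89 to 5.76 CPM in KI. Without KO 1 it passed in KO (log2 fold change 0.39, adjusted p = 0.0883).

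Slc30a9 overlapped between all genotypes, at 62.8 to 84.1 CPM in WT, 64.9 to 75.6 CPM in KO and 64.8 to 79.8 CPM in KI. Its log2 fold change was -0.11 in KO (95% interval -0.32 to 0.10) and -0.04 in KI (-0.24 to 0.17). Slc30a2 rested on 13 to 37 counts a library, and its log2 fold changes of 0.03 in KO and -0.07 in KI had intervals of -0.48 to 0.54 and -0.58 to 0.44. Intervals of this width do not show that these members are alike in the genotypes.

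Slc30a4 was next set against each paralog within the same library, where the scaling of libraries cancels. A difference in the mix of cells or stages does not cancel in such a ratio, and its part was not tested. The log2 ratio of Slc30a4 counts to Slc30a9 counts, with 0.5 added to each, had a mean and SD of 0.33 ± 0.166 in WT, -1.13 ± 0.338 in KO and -1.35 ± 0.431 in KI, with n = 6 each. To Slc30a3 it was 0.92 ± 0.270, -0.84 ± 0.321 and -1.03 ± 0.315. To Slc30a1 it was -0.02 ± 0.316, -1.21 ± 0.354 and -1.29 ± 0.179. In WT Slc30a4 thus had about as many counts as Slc30a1 and more than Slc30a3 in every library, and in every mutant library it had fewer than either.

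The difference from WT in this log2 ratio was smallest against Slc30a1, at -1.19 in KO and -1.27 in KI. It was largest in KO against Slc30a7 (-1.86) and in KI against Slc30a3 (-1.95). In each of the 14 comparisons of 7 paralogs with 2 mutants, the mutant and WT libraries did not overlap. Slc30a4 by itself already separated WT (lowest 76.4 CPM) from KO (highest 38.0 CPM) and KI (highest 40.8 CPM). Its ratio to other genes that change little can thus be separated in the same way. The share of all genes with such a ratio was not computed, so the separation is not shown to be particular to the paralogs. The exact permutation test, two-sided, gave p = 0.00216 in all 14, which is the smallest that 6 libraries against 6 allow, and an adjusted p of 0.00216 over the 14. With close libraries summed all 14 differences kept their direction, between -1.88 and -1.23, and the highest adjusted p was 0.0571. The smallest p is then 0.0357 for 3 samples of WT against 5 of KO and 0.0571 for 3 against 4 of KI, so these adjusted p-values are at the limit of the design and say nothing of how stable the differences are. Since the paralogs share the Slc30a4 counts, the 14 tests are not independent. Slc30a4 had been named by the study from these same libraries, so the 14 tests are no independent evidence of its fall either.

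**Figure D3:**
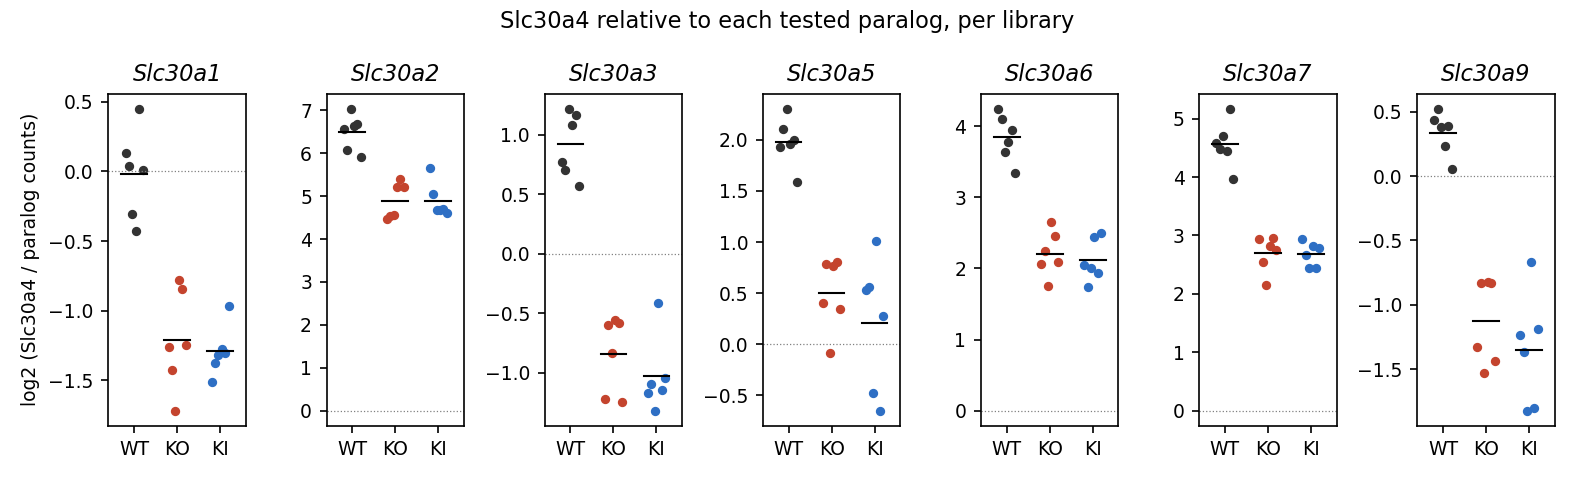
Log2 ratio of Slc30a4 counts to those of each tested paralog (vertical axes, separate scales) in each library of WT, KO and KI. Points are libraries and black lines are means. Against each of the 7 paralogs the WT points lie above all KO and KI points.

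In WT Slc30a4 made up 25.9% ± 2.30 (SD, n = 6) of the family's summed CPM per kb, compared with 11.1% ± 1.98 for KO and 9.99% ± 1.62 for KI. The family sum was 66.1 ± 7.12 CPM per kb in WT, 52.4 ± 3.53 in KO and 52.6 ± 4.65 in KI. These shares describe the sum over the 10 members and were not tested.

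Genes that overlap a member could share its reads, but the counting kept the strands apart. Slc30a4 overlaps 4930417H01Rik, a processed transcript on the plus strand at chr2:122702047-122721456, over 617 bases at its start, so that the promoter shown above lies within the span of that gene. It had 138 to 200 counts in WT, 96 to 186 in KO and 73 to 166 in KI, against 1662 to 2247 counts of Slc30a4 in WT. Slc30a1 overlaps the antisense gene 1700034H15Rik (381 to 595 counts in WT, 305 to 430 in KO, 288 to 421 in KI). Slc30a3 overlaps Dnajc5g, a chaperone gene with 1023 to 2122 counts in WT, 872 to 2075 in KO and 965 to 2926 in KI, and Gm9924 (0 to 5 counts). Slc30a7 overlaps Gm43106 and Gm6649, both pseudogenes, with 0 to 11 counts, and Mir669n with 0, and Slc30a10 overlaps Gm2061 with 0 to 2. All of these lie on the strand opposite to the member.

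A further sequence of Slc30a4 concerns miRNAs, which were sequenced from the same cell type and are not analysed here. The mature miR-26a-5p and let-7c-5p (RefSeq) are printed with the seed, bases 2 to 8, in capitals, because the study's pairs of miRNAs and mRNAs include them. The third line is the match to the seed of miR-26a-5p in the 3′ UTR of Slc30a4 at chr2:122683510-122683532 of GRCm38 (minus strand, GENCODE M21 transcript), with the matching bases in capitals.

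miR-26a-5p: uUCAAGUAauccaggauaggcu
let-7c-5p: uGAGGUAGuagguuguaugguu
Slc30a4 site: atttaaaattataaaTACTTGAa

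This was the single match TACTTGA in the 3946 bases of the longest annotated 3′ UTR of Slc30a4, starting at base 1662 after the stop codon. Slc30a1, Slc30a5 and Slc30a7 each held 1 as well, and the other members held 0. Of 1567 3′ UTRs of similar length (3157 to 4735 bases), 25.3% held this match. The match to let-7c-5p, CTACCTC, stood once in Slc30a1, in none of the other members, and in 329 of the 1567 3′ UTRs of similar length. These matches are letters in the annotated transcripts, and use of a site was not tested.

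The genes with the pattern most like that of Slc30a4 over the 18 libraries, by Pearson's r of log2 CPM, were Skp2 (r = 0.996), 4930544D05Rik (0.994), Oxct2a (0.994), 1700080E11Rik (0.992) and Spem1 (0.992). Skp2 encodes a ubiquitin ligase subunit, Oxct2a a testis form of a ketone body enzyme, and Spem1 a protein of late spermatids. Each was lower in both mutants, by between -1.32 for Skp2 and -2.75 for Spem1 in KO and between -1.46 and -2.93 in KI. The r over all libraries includes the difference between genotypes. Within genotypes, after the genotype means were removed, r of these genes lay between 0.9145 for 1700080E11Rik and 0.970 for Spem1, with 0.959 for Skp2. These genes were picked by r over the same libraries, so a high r within genotypes follows in part from that choice. No background of r over other genes was computed. Among the paralogs r with Slc30a4 over all libraries lay between -0.55 for Slc30a3 and 0.65 for Slc30a1.

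The other side of zinc handling was read from the 14 Slc39 importers and 6 further genes, the metallothioneins Mt1 to Mt4, Mtf1 and Tmem163. Of these 20 genes 15 were tested, and Slc39a2, Slc39a5, Mt3, Mt4 and Tmem163 did not pass the filter. For a change of any amount 4 of 15 were called in KO (3 higher, 1 lower) and 5 of 15 in KI (3 higher, 2 lower), against 29.9% and 31.6% of all genes tested. By direction, 16.4% of all genes were called higher and 13.5% lower in KO, and 16.1% and 15.4% in KI. Their median log2 fold change was 0.075 in KO and 0.079 in KI. Past 1 log2 unit 0 of 15 were called in either mutant by glmTreat (1 in each at an unadjusted p under 0.05, and 0 by DESeq2), and between KI and KO 0 were called for any amount by edgeR (0 at an unadjusted p under 0.05, and 0 by DESeq2).

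Slc39a13, which encodes ZIP13, an intracellular transporter that moves zinc from vesicles and the Golgi to the cytosol, fell in both mutants. Its WT libraries lay at 22.2, 18.8, 25.6, 24.9, 22.3 and 17.2 CPM. Its KO libraries lay at 7.63, 11.5, 11.2, 8.46, 7.97 and 7.84 CPM, and its KI libraries at 7.37, 7.14, 9.26, 12.6, 9.82 and 8.24 CPM, the fourth being the library labelled KI 4. No mutant library reached the lowest of WT, a fall without overlap that was seen in 6.44% of all genes in KO and 7.91% in KI. The log2 fold change was -1.26 in KO (SE 0.155, adjusted p = 2.84e-06) and -1.27 in KI (SE 0.155, adjusted p = 2.28e-06). With close libraries summed the adjusted p was 0.000782 in KO and 0.00167 in KI. Its r with Slc30a4 was 0.919 over all libraries and 0.331 within genotypes.

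Slc39a1, a plasma membrane importer (ZIP1), rose from a median of 2.41 CPM in WT (highest 2.81) to 2.86 to 5.11 CPM in KO and 3.01 to 4.83 CPM in KI, without overlap. Such a rise without overlap was seen in 6.62% of all genes in KO and 5.97% in KI. Its log2 fold change was 0.80 in KO (adjusted p = 0.00246) and 0.69 in KI (adjusted p = 0.00724). With close libraries summed both calls held (adjusted p = 0.0338 in KO and 0.0542 in KI), and with the library labelled KI 4 also left out the call in KI was lost (adjusted p = 0.134). The abundant importers Slc39a6 and Slc39a8 were called higher in both by smaller amounts, 0.42 and 0.44 in KO (adjusted p = 0.0460 and 0.0136) and 0.37 and 0.39 in KI (adjusted p = 0.0744 and 0.0246). Slc39a6 had 119.8 to 173.2 CPM in WT, 176.0 to 233.6 CPM in KO and 142.8 to 247.1 CPM in KI, and Slc39a8 had 61.3 to 89.9, 86.0 to 112.5 and 79.0 to 110.6 CPM. With close libraries summed neither was called in KO (adjusted p = 0.182 for Slc39a6 and 0.105 for Slc39a8) or in KI (0.277 and 0.146). The calls of Slc39a6 were also lost on leaving out single libraries, in KO without WT 1 (adjusted p = 0.107), WT 2 (0.108) or KO 6 (0.107) and in KI without WT 1 (0.159), WT 2 (0.161), WT 5 (0.116), KI 1 (0.176), KI 2 (0.180) or the library labelled KI 4 (0.122).

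Slc39a4, an importer best known from the intestine, was at 0.964 to 1.65 CPM in WT and 0.801 to 1.31 CPM in KO. In KI 5 libraries had 0.502 to 0.839 CPM, below all of WT, and the library labelled KI 4 had 1.82 CPM. The log2 fold change in KI was -0.62 (adjusted p = 0.0925) and -0.96 without the library labelled KI 4 (adjusted p = 0.00257), while in KO it was -0.40 (adjusted p = 0.309). The call in KI was lost in 13 of the 18 fits that leave out 1 library, with adjusted p up to 0.189 (without KI 3), and held in the other 5 (without WT 2, KO 1, KO 2, KO 3 or the library labelled KI 4). It was also lost with close libraries summed (adjusted p = 0.409).

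Mt1 had 172.5 to 263.2 CPM in WT, 176.2 to 233.8 CPM in KO and 133.3 to 248.5 CPM in KI. Its log2 fold change was -0.12 in KO (adjusted p = 0.649) and -0.17 in KI (adjusted p = 0.507). Mt2 had -0.20 and -0.19 and Mtf1 0.12 and 0.08, and neither was called in either mutant. The intervals of these 3 genes reached at most from -0.56 to 0.48 in KO and from -0.55 to 0.43 in KI. The remaining 7 importers tested, Slc39a3, Slc39a7, Slc39a9, Slc39a10, Slc39a11, Slc39a12 and Slc39a14, did not pass the test in either mutant.

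**Figure D4:**
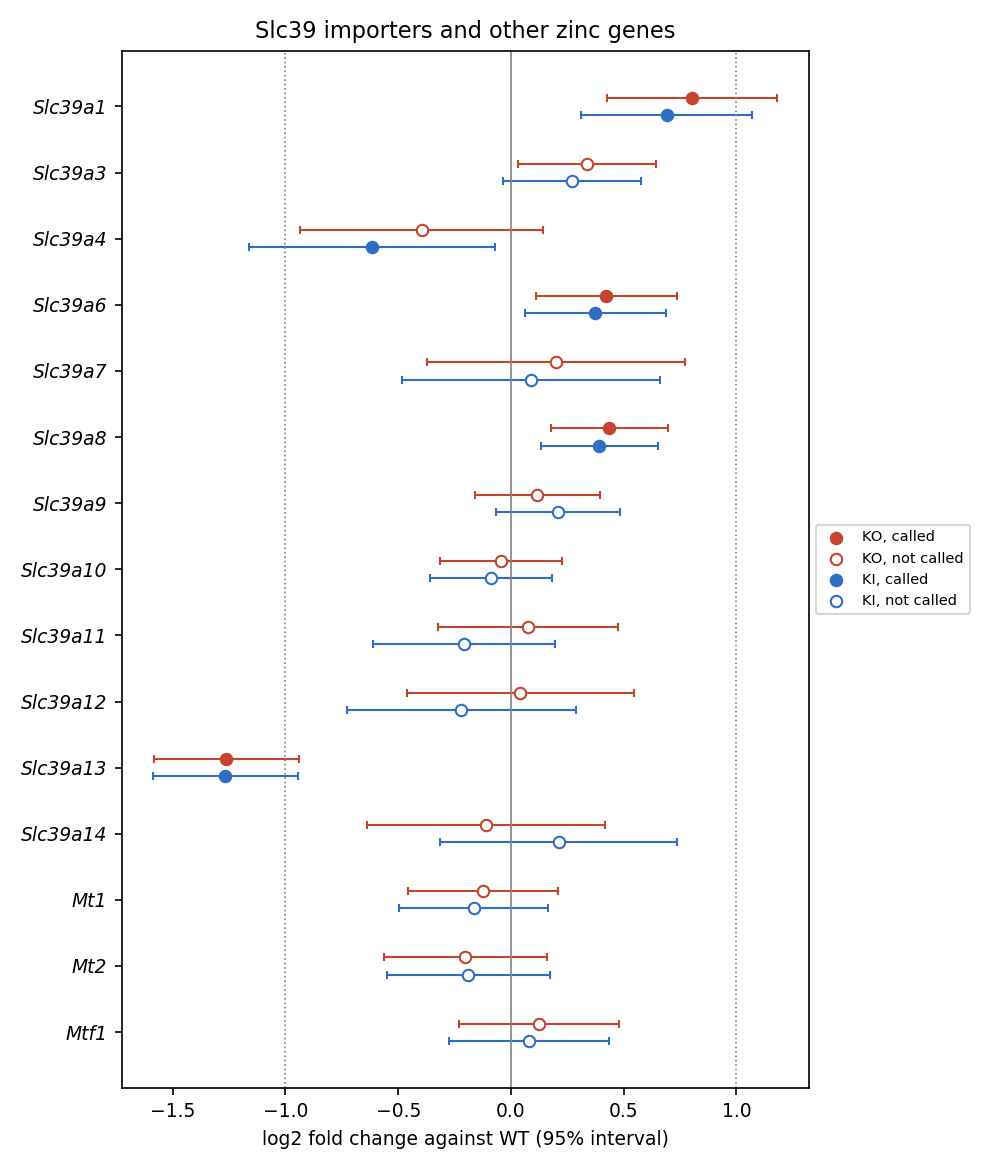
Log2 fold change of the 15 tested Slc39 importers and other zinc genes in KO and in KI against WT (horizontal axis, bars are 95% intervals). Filled points passed an adjusted p of 0.1 for a change of any amount. Slc39a13 lies near -1.3 in both mutants with intervals that include -1, and Slc39a1, Slc39a6 and Slc39a8 lie above 0.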

How the data were processed

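Libraries were made from total RNA without polyA selection. The submitters' notes and the file header name cutadapt 3.4 for trimming, STAR 2.7.8a with GRCm38 for alignment, and featureCounts 2.0.1 with the GENCODE M18 annotation for strand-specific counting of read pairs. The authors deposited raw counts of 54232 genes in 18 libraries. Genotype and number came from the labels, and 0 columns were left without a library. Names of 54079 genes came from GENCODE M21 on the same build.

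The counts were fitted in R 4.3.3 with edgeR 4.0.16: filterByExpr, TMM factors and 1 quasi-likelihood model of genotype over all libraries, with glmQLFTest for any amount and glmTreat for more than 1 log2 unit, Benjamini-Hochberg adjustment over 21058 genes and a threshold of 0.1. CPM per kb divides normalized CPM by the gene length in the table. Ratios within libraries were compared by exact permutation tests in scipy 1.17.1. The floor of 3 counts covers counting error only. It does not cover PCR duplicates, which were not removed, and the study's methods mention no molecular identifiers. Intervals of log2 fold changes came from the quasi-likelihood model and include the spread between libraries. Alternatives were DESeq2 1.42.0, other scalings and filters, a stricter threshold, a replicate block, close libraries summed, and leaving out each library.

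The members, gene lists and tests were chosen with earlier results of these data known. Genes named were all members, each zinc gene called against WT, the 5 genes most like Slc30a4, genes overlapping a member, and Ddx25.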

Additional observations from a re-analysis of the deposited data

Results flagged for a closer look

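Among 39 sets of 6 libraries, made of 13 genes in 3 genotypes, 3 held 1 library far from the other 5, with a gap to its nearest neighbour above Dixon's critical share of the whole range. Chance gives about 1 in 20 where the 6 libraries are independent. That rate need not hold here, with close pairs of libraries within genotypes. Slc30a5 in KO 3 was at 26.7 CPM, where the other KO libraries lay between 19.5 and 22.1 CPM. Slc30a7 in the library labelled KI 4 was at 5.76 CPM, where the others of KI lay between 3.89 and 4.43 CPM. Slc39a4 in the library labelled KI 4 was at 1.82 CPM, where the others of KI lay between 0.502 and 0.839 CPM. The library labelled KI 4 also had the Ddx25 level of a KO library, and its part in these values was not tested.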

How the results depend on the processing

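The 14 ratios to paralogs kept their direction under every alternative run. The call of Slc30a4 for any amount kept its direction and its side of the threshold under every alternative run, with log2 fold changes from -1.61 to -1.49 in KO and -1.81 to -1.59 in KI. With close libraries summed, which leaves fewer samples, the call past 1 log2 unit was lost in KO (-1.61) and in KI (-1.60), so that 0 members passed it in either. With the library labelled KI 4 also left out, an alternative chosen after seeing the data, it stayed lost in KO (-1.61, 0 members) and was made in KI (-1.74). Leaving out single libraries gave -1.61 to -1.49 in KO and 0 to 1 members. Members called for any amount in KO were 2 with DESeq2's size factors and 2 without KO 2 and KI 4 (also added later), and 1 to 2 on leaving out single libraries. In KI they were 1 at a threshold of 0.05, 1 without a filter, 1 with close libraries summed and 1 with KI 4 also left out. They were 3, with Slc30a3 added, under DESeq2, DESeq2's size factors, TMM without mitochondrial genes or at least 10 counts in every library. On leaving out single libraries they were 1 to 3. With only the genotypes compared, Slc30a3 was called in KI (adjusted p = 0.0568 by edgeR) and Slc30a1 was not (0.119). Zinc genes called in KI were 3 at 0.05, 3 without a filter, 2 with close libraries summed and 2 with KI 4 also left out, and 3 to 5 on leaving out single libraries. In KO they were 2 in both summed fits. The cause of these moves was not tested. The log2 difference of Slc30a4 between KI and KO turned to 0.012 with close libraries summed.

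Members that were not called changed sign. Slc30a2 in KO was -0.0071 without a filter, -0.11 without KO 2 and KI 4 and -0.12 to 0.12 on leaving out single libraries. In KI it was 0.051 with close libraries summed and -0.25 to 0.044 on leaving out single libraries. Slc30a6 in KO was -0.00031 without KO 2 and KI 4 and -0.040 to 0.13 on leaving out single libraries. In KI it was -0.025 both in that fit and with close libraries summed and KI 4 left out, and -0.073 to 0.16 on leaving out single libraries. Slc30a9 in KI was 0.0096 with only the genotypes compared, 0.020 with close libraries summed and KI 4 left out, and -0.081 to 0.069 on leaving out single libraries. Slc30a5 in KI was -0.023 to 0.16 on leaving out single libraries.

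The deviations of same-numbered libraries from their genotype means gave mixed correlations, from -0.57 to 0.58. They were over 0.1 in 3 of 6 pairs of KI with KO. The same held in 2 of 6 of KI with WT and 2 of 6 of KO with WT. These values do not settle whether the numbers pair the samples. With the replicate number as a block, Slc30a4 had -1.57 in KO and -1.71 in KI, members called were 1 in KO and 3 in KI (Slc30a3 added, adjusted p = 0.0952), zinc genes called were 4 in each (Slc39a6 lost in KI), and the 14 ratios had an adjusted p of 0.0313. That value is the smallest that exact sign changes of 6 pairs allow, so it shows only that all pairs differed in the same direction. Depth limits Slc30a8 and Slc30a10, at 2 counts or fewer, and Slc30a2, at 13 to 37.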
